A study of Drosophila melanogaster with 6 samples.

Results

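The genes described here encode the cytosolic translation machinery of Drosophila melanogaster: ribosomal proteins, translation factors and cytosolic tRNA synthetases. They were chosen by their current symbols alone, which begin with RpL or RpS, begin with eIF, eEF or eRF and a number, or join a 3-letter amino acid code to RS. Of 7347 genes named on either of the 2 array designs, 65 met this rule: 24 ribosomal protein genes, 34 translation factor genes and 7 tRNA synthetase genes. The S3 design held 57 of them among its 6793 genes, the ovary design held 21 among its 2377 genes, and 13 were on both. Release 6 of the fly annotation lists 163 symbols of this form, 92 of them for ribosomal proteins, so the arrays sampled the machinery and did not cover it. All 57 and all 21 had a value on every array of their group, and no filter removed any of them.

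Ribosomes are built from a large and a small subunit, each a set of proteins on ribosomal RNA. Initiation factors bring the initiator tRNA and the messenger RNA to the small subunit, elongation factors move the ribosome along, release factors end the chain, and tRNA synthetases load each tRNA with its amino acid. In the fly ovary, nurse cells make large stores of ribosomes and translation factors for the egg, and several of these genes have a second, related copy that is used mainly in germ cells.

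The study exposed S3 cells, a cultured Drosophila line, to 0 or 5.2e-08 M methotrexate over 4 days, and flies to 0 or 5 ppm over 5 days before their ovaries were taken. Methotrexate is an antifolate that inhibits dihydrofolate reductase. Each 2-colour spotted cDNA array compared treated with untreated RNA, on 4 arrays for S3 cells and 2 for ovaries, and the deposited value of a spot is the log ratio of the 2 channels. The fly strain, the number of animals and any pooling are not given in the sources used here. Nothing says that arrays of a group came from separate cultures or flies. The p-values thus set a mean only against the spread between arrays, and that spread may be technical. In the fit of the ovary arrays alone this spread was pooled over all genes.

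A log2 ratio is positive here where the unnamed numerator channel was brighter. Which channel that was cannot be read from the labels or from the values, so signs are given and no direction relative to methotrexate. On S3 array 2 the dyes were the reverse of those on arrays 1, 3 and 4, and its sign against the others is not settled. Signs on array 2, and counts of genes with 1 sign on all 4 arrays, are as deposited. Values with array 2 turned are given for the classes and for the genes and complexes whose result it moves most. In ovary, according to the labels, Cy5 marked the treated RNA both times, so there a dye effect and the treatment cannot be told apart. The series' own description speaks instead of a dye swap in ovary, and the conflict is not settled here. Ratios hold no expression level, so neither the labelled material nor the level of a gene can be checked in them. In bulk RNA, fewer cells of a type and less RNA per cell cannot be told apart.

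The arrays differed in how well they repeated. Across genes, with print blocks centred, pairs of S3 arrays correlated at 0.0607 to 0.180. With blocks and rows centred, the 2 ovary arrays correlated at 0.758. With array medians only, S3 arrays 1 and 2 correlated at -0.187 and arrays 2 and 3 at -0.0794. The other S3 pairs were then at 0.054 to 0.206, and the ovary arrays at 0.753. Block centring was chosen partly because with it all S3 pairs correlated above 0. Neighbouring duplicate spots correlated at 0.143 to 0.436 on the S3 arrays and at 0.770 to 0.872 on the ovary arrays. For the genes described here, the means of the first and of the second spot of each neighbouring pair had the same sign for 36, 37 and 40 of 57 genes on S3 arrays 1 to 3 and for 44 of 56 on array 4. On the ovary arrays they did so for 21 and 17 of 21. Their median absolute difference was 0.155 to 0.300 in log2 units on S3 arrays and 0.148 to 0.156 on ovary arrays.

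In S3 cells, translation factors and tRNA synthetases leaned to the positive side, and ribosomal proteins did so on some arrays only. Positive means were found for 22 of 30 translation factor genes, 3 of 4 synthetase genes and 16 of 23 ribosomal protein genes, beside 49.2% of all 6762 genes tested. The class medians were 0.14, 0.18 and 0.05 in the same order, beside -0.0049 for all genes. No gene of the machinery passed the test in limma at an adjusted p of 0.05, and neither did any other gene (0%). At an unadjusted p of 0.05, 3 of the 57 genes passed (5.26%), beside 643 of all genes (9.51%), so the share was not above the background. These were eIF2beta, eIF3c and IleRS. Positive values on 4 of 4 arrays were found for 12 of the 57 genes, beside 9.91% of all genes, and negative values on 4 of 4 for 1, beside 9.54%.

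**Figure D1:**
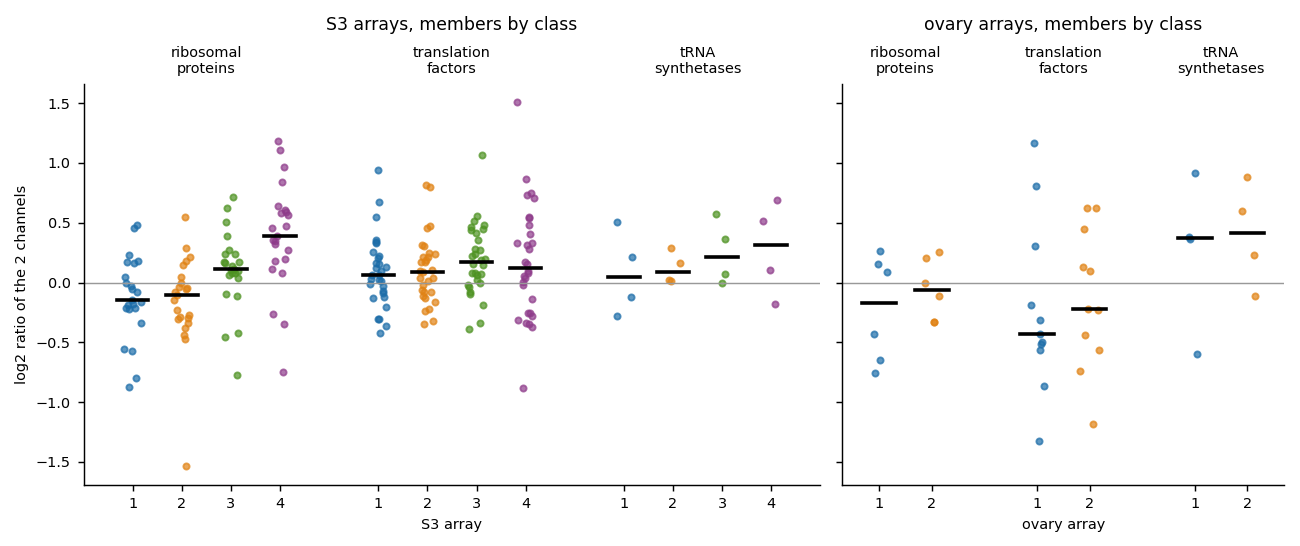
Log2 ratio of the 2 channels (vertical axis) of every gene of the 3 classes on each S3 array (left) and each ovary array (right), with one point per gene and a black line at the class median. The ribosomal protein median lies below 0 on S3 arrays 1 and 2 and reaches 0.39 on S3 array 4, while the translation factor medians lie between 0.06 and 0.17 on all 4.

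The ribosomal protein genes did not hold one sign from array to array. Their median log2 ratio was -0.14 on S3 array 1, -0.11 on array 2, 0.11 on array 3 and 0.39 on array 4. Positive values were found for 7, 6, 18 and 20 of the 23 genes in the same order, or 30.4%, 26.1%, 78.3% and 87.0%, where all genes gave 50.0%, 51.7%, 51.4% and 45.9%. Arrays 1 and 2 thus lay below the rest of the genes and arrays 3 and 4 above. Without array 4 the number of positive means was 10 of 23 and the median -0.04, and with array 2 turned it was 19 of 23 and 0.11. Of the class, 2 genes were positive on every array and 1 was negative on every array.

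Grouped by symbol, 14 of 15 large subunit genes had a positive mean, with a median of 0.06. Of the small subunit genes 2 of 8 did, with a median of -0.07. The 15 include RpLP0-like and RpL24-like, counterparts of yeast assembly factors, and the related copy RpL7-like. Their means were 0.44, 0.12 and 0.09, so the count is not one of ribosome components alone. The large subunit medians were -0.03 and -0.11 on arrays 1 and 2 and 0.16 and 0.39 on arrays 3 and 4. Without array 4 the counts were 8 of 15 for the large and 2 of 8 for the small subunit. Without array 3 they were 10 of 15 and 3 of 8. Without array 1 they were 13 of 15 and 6 of 8, and the medians were close, at 0.10 and 0.09. With array 2 turned the counts were 14 of 15 and 5 of 8. The size of the difference between the subunits thus varied with the arrays used, and the difference was not tested.

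Single ribosomal protein genes spread widely. RpS7, a small subunit protein, gave 0.23, 0.29, 0.17 and 1.18 on arrays 1 to 4. It was positive on every array, and array 4 stood far above the others. Its mean was 0.47 ± 0.48 (SD, n = 4; limma adjusted p = 0.535). RpS5b, the copy of small subunit protein S5 used mainly in the female germ line, gave -0.34, -0.0052, -0.45 and -0.75. All 4 arrays were below 0, array 2 only just. The mean was -0.39 ± 0.31 (SD, n = 4; limma adjusted p = 0.543). The SD of the per-array values approached or exceeded the mean in both genes.

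The stalk of the large subunit, which recruits elongation factors, was represented by RpLP0 and RpLP1. RpLP0 gave -0.15, -0.44, 0.72 and 0.39, and averaged 0.13 ± 0.52 (SD, n = 4; limma adjusted p = 0.862). RpLP1 gave 0.48, -1.54, 0.16 and 0.59, so array 2 alone pulled its mean to -0.08. Its neighbouring spots lay far apart, at -0.79 and -2.29 on array 2 and at 0.49 and -0.16 on array 3. RpLP0-like, whose yeast counterpart takes part in the assembly of the large subunit, gave 0.46, -0.30, 0.50 and 1.11. Its mean was 0.44 ± 0.58 (SD, n = 4; limma adjusted p = 0.583). In all 3 genes array 2 was the lowest, and with its sign turned the means were 0.35, 0.69 and 0.59. RpL24-like, counterpart of another yeast assembly factor, stayed between 0.04 and 0.20, with a mean of 0.12 ± 0.08 (SD, n = 4).

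RpL39, of the large subunit, and RpS12, of the small subunit, followed by the size of their p. RpL39 had a mean of 0.19 ± 0.22 and RpS12 one of -0.14 ± 0.26 (SD, n = 4 each), with 3 of 4 arrays on the side of the mean in each. RpS20 ran from -0.88 on array 1 to 0.97 on array 4, the same order of arrays that the class medians show. RpS28b did likewise, from -0.55 on array 1 to 0.45 on array 4. The remaining ribosomal protein genes had means between -0.03 and 0.14.

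**Figure D2:**
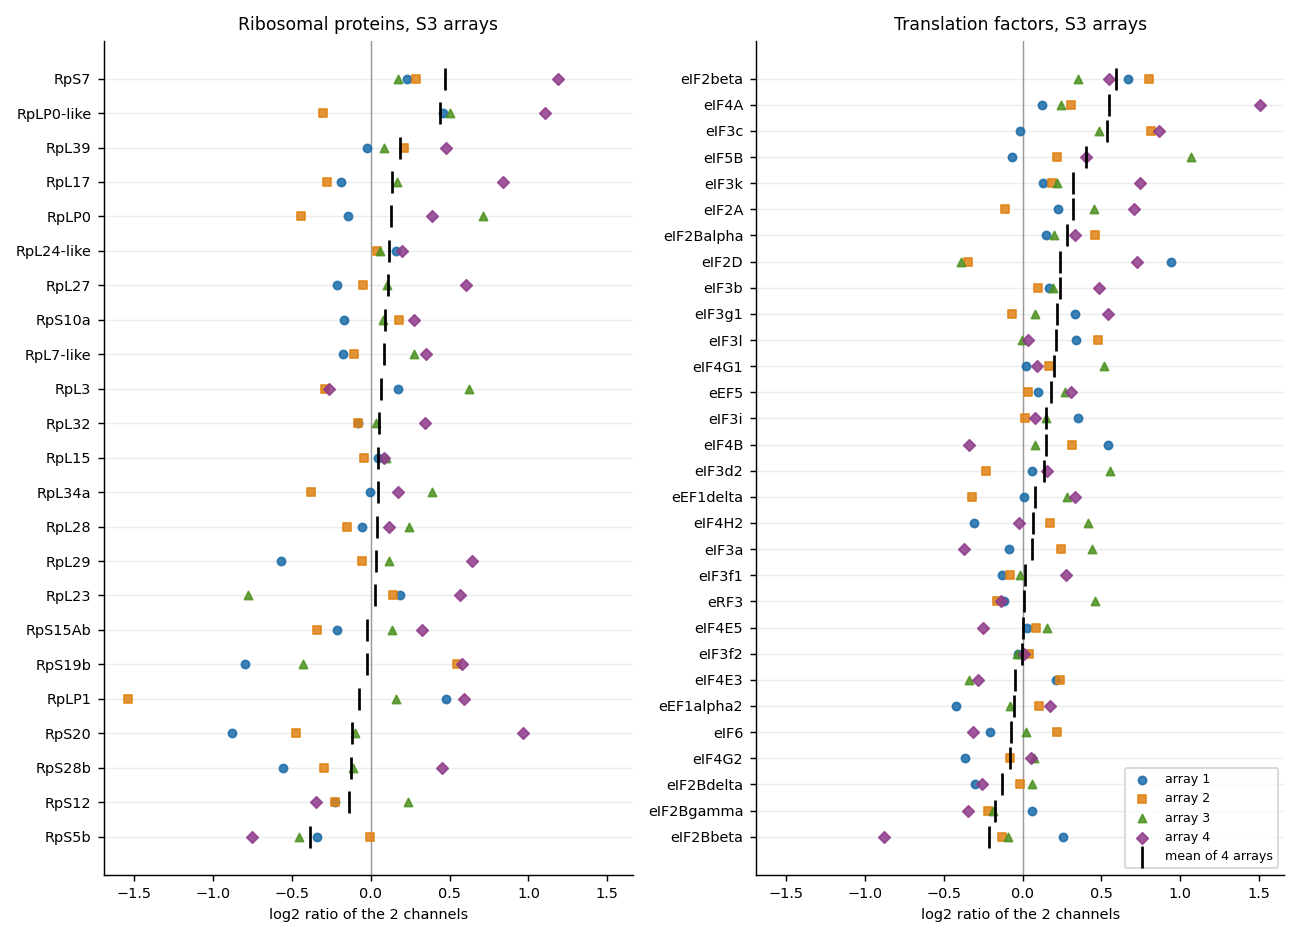
Log2 ratio of the 2 channels (horizontal axis) of each ribosomal protein gene (left) and translation factor gene (right) on S3 arrays 1 to 4, sorted by the mean, which is the black tick. Array 4 supplies the highest value of RpS7 (1.18) and of eIF4A (1.51), and eIF2beta has all 4 arrays at 0.35 or above.

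RpL32, a large subunit protein often taken as a reference gene, was spotted many times and shows the scatter within an array. It had 20 spots in 6 print blocks of the S3 design, with an SD between spots of 0.579, 0.607, 0.520 and 0.625 on arrays 1 to 4. The spot medians were -0.23, -0.04, 0.10 and 0.36, and 6, 9, 11 and 15 of the 20 spots were positive. Spots on both sides of 0 were thus found on every S3 array. Averaged over spots, RpL32 had a mean of 0.05 (limma adjusted p = 0.932). On the ovary design it had 18 spots in 6 blocks, with an SD of 0.362 and 0.454 and medians of -0.60 and -0.28. Negative values were found on 17 and 13 of the 18 ovary spots.

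**Figure D3:**
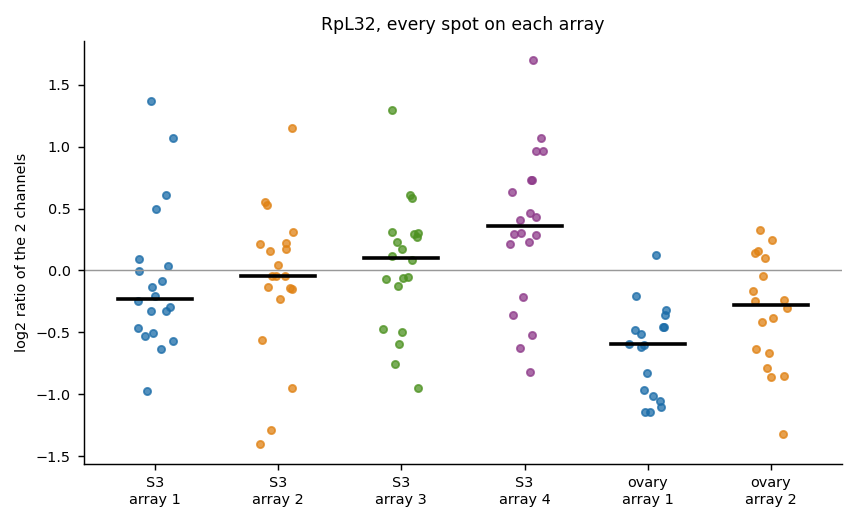
Log2 ratio of the 2 channels (vertical axis) at every spot of RpL32 on each of the 4 S3 and 2 ovary arrays, with one point per spot and a black line at the median. The S3 medians climb from -0.23 on array 1 to 0.36 on array 4 within a wide scatter, and most ovary spots lie below 0.

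Translation factors were the steadier class in S3 cells. Their medians were 0.06, 0.09, 0.17 and 0.13 on arrays 1 to 4, and 19, 19, 22 and 20 of the 30 genes were positive. Of the class, 8 of 30 genes were positive on all 4 arrays (26.7%) and 0 were negative on all 4. With array 2 turned, positive means fell to 17 of 30 and the median to 0.07. With 1 array left out in turn, between 19 and 23 genes had a positive mean.

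Of the factors that bring the initiator tRNA, all 3 measured had a positive mean, with a median of 0.32. eIF2beta, a subunit of the complex that carries the initiator tRNA, gave 0.67, 0.80, 0.35 and 0.55. It was the only translation factor with every array at 0.35 or above. The mean was 0.59 ± 0.19 (SD, n = 4; unadjusted p = 0.00632, limma adjusted p = 0.423). With array 2 turned it was 0.19. eIF2A, which can place the initiator tRNA by another route in mammals and yeast, gave 0.22, -0.11, 0.45 and 0.71, with array 2 below 0. On arrays 1 and 4 its neighbouring spots had opposite signs. Its mean was 0.32 ± 0.35 (SD, n = 4; limma adjusted p = 0.605). eIF2D, another tRNA-placing factor, was positive on arrays 1 and 4 and negative on arrays 2 and 3, with a mean of 0.23 ± 0.70 (SD, n = 4). On array 2 its neighbouring spots gave 0.23 and -0.92, and its array 4 value rests on a single spot.

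eIF2B, the exchange factor that recharges eIF2 with GTP, was split. Its regulatory subunit eIF2Balpha gave 0.15, 0.46, 0.20 and 0.33 as deposited, and averaged 0.28 ± 0.14 (SD, n = 4; limma adjusted p = 0.60). Its mean with array 2 turned was 0.06. The means of eIF2Bbeta, eIF2Bgamma and eIF2Bdelta were -0.21, -0.17 and -0.13, and none was past the threshold. The 4 subunits measured thus did not share a sign, and their median was -0.15.

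eIF3 is the large scaffold that binds the small subunit. Positive means were found for 9 of its 10 measured subunits, with a median of 0.18, and for 7 of 10 with array 2 turned. Of these, 3 were positive on all 4 arrays. eIF3c, a core subunit, gave -0.01, 0.82, 0.48 and 0.87, with array 1 near 0 and the others well above. Its mean was 0.54 ± 0.40 (SD, n = 4; limma adjusted p = 0.507). Turning array 2 gave 0.13. eIF3k gave 0.13, 0.19, 0.22 and 0.75, again with array 4 apart, averaging 0.32 ± 0.29 (SD, n = 4; limma adjusted p = 0.589). eIF3b, another core subunit, was positive on every array with a mean of 0.23 ± 0.17 (SD, n = 4). The related copies eIF3f1 and eIF3f2 had means of 0.01 and -0.0050, and eIF3f2 had an SD over arrays of 0.03. That small SD came from averaging neighbouring spots of opposite sign on arrays 1, 2 and 4. They gave -0.19 and 0.14, -0.22 and 0.30, and -0.32 and 0.33. On array 3 they gave -0.05 and -0.03.

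The eIF4 group, which binds the cap and unwinds the messenger RNA, had 5 of 7 positive means and a median of 0.07 as deposited, but 2 of 7 and -0.02 with array 2 turned. eIF4A, the helicase, gave 0.12, 0.31, 0.24 and 1.51. It was positive on every array, and array 4 lay far from the rest. Its mean was 0.55 ± 0.65 (SD, n = 4; limma adjusted p = 0.535) and 0.23 without array 4. The scaffold eIF4G1 had a mean of 0.20 and its relative eIF4G2, known for its part in spermatogenesis, one of -0.08. The cap-binding proteins eIF4E3 and eIF4E5 had means of -0.05 and 0.0049. Neighbouring spots of eIF4E5 had opposite signs on every array, up to 1.71 apart on array 3, and those of eIF4E3 did on arrays 1 to 3. A cDNA spot can also bind RNA of a related copy, so values of such pairs may not be fully separate.

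Of the later-acting factors, eIF5B, which joins the subunits, gave -0.07, 0.22, 1.07 and 0.40, and averaged 0.40 ± 0.48 (SD, n = 4; limma adjusted p = 0.583). eIF6, which keeps free large subunits apart from small ones, had a mean of -0.07 ± 0.24 (SD, n = 4). Among elongation factors, eEF5, which relieves stalled ribosomes, was positive on all 4 arrays with a mean of 0.18 ± 0.13 (SD, n = 4). The elongation factors eEF1delta and eEF1alpha2 had means of 0.08 and -0.06. The release factor gene eRF3 had a mean of 0.01, with array 3 alone above 0.

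Among synthetases on the S3 design, IleRS, which loads isoleucine, gave 0.22, 0.29, 0.57 and 0.52. All arrays were positive and the spread over arrays was small. Its neighbouring spots were all positive too, but lay 0.36 to 0.60 apart on these arrays. The mean was 0.40 ± 0.17 (SD, n = 4; unadjusted p = 0.0396, limma adjusted p = 0.507), and 0.25 with array 2 turned. ThrRS, which loads threonine, gave 0.50, 0.01, 0.37 and 0.11, also all positive, with a mean of 0.25 ± 0.23 (SD, n = 4). SerRS and AlaRS had means of 0.11 ± 0.41 and -0.02 ± 0.16 (SD, n = 4), each with values on both sides of 0.

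In ovaries, single factors and 1 synthetase were far from 0 while the ribosomal proteins were not called. In limma with an adjusted p of 0.05, 5 of the 21 genes passed (23.8%), beside 32.3% of all 2377 genes. Of these, 3 were positive, beside 17.8% of all genes, and 2 negative, beside 14.5%. Positive values on 2 of 2 arrays were found for 8 genes, beside 37.4% of all genes, and negative values on 2 of 2 for 10, beside 38.6%. Positive means made up 48.2% of all genes, and 2 of 6 ribosomal protein genes, 3 of 11 translation factor genes and 3 of 4 synthetase genes had one. The class medians were -0.12, -0.36 and 0.39, beside -0.02 for all genes. Passing counts were 0 of 6, 4 of 11 (36.4%) and 1 of 4 (25.0%). At an unadjusted p of 0.05 in limma, 1 of 6 ribosomal protein genes passed (16.7%), beside 41.1% of all genes.

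With 2 arrays the spread of a single gene rests on 1 degree of freedom, and limma used the same standard error, 0.24, for every gene. In that fit a p-value thus depended on the mean of the gene alone, not on how far its 2 arrays differed. Rows within print blocks held 21.1% and 17.8% of the variance on the 2 ovary arrays, and were centred. With array medians only, 39.0% of all genes and 7 of the 21 genes passed, 4 of which passed under both centrings. Between the centrings, 6 of the 21 genes changed the sign of their mean. With array 2 turned, no gene on the ovary design passed in limma, as follows from the close match of the 2 arrays as deposited.

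For genes on both designs the ovary means were also tested jointly with the S3 arrays. The limma adjusted p was then 0.0221 for eIF2A, 0.0258 for eIF4E5 and 0.0654 for eIF3f2. With 1 ovary array left out, that fit called 0 and 11 of the 1816 genes, so it was too small to test single calls. The means of eIF2A were then -1.18 and -0.87 (limma adjusted p = 0.364 and 0.195, without array 1 and without array 2). Those of eIF4E5 were 0.63 and 1.16 (limma adjusted p = 0.482 and 0.0814). The genes eRF1 and TyrRS were not on the S3 design and could not be tested in this way.

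**Figure D4:**
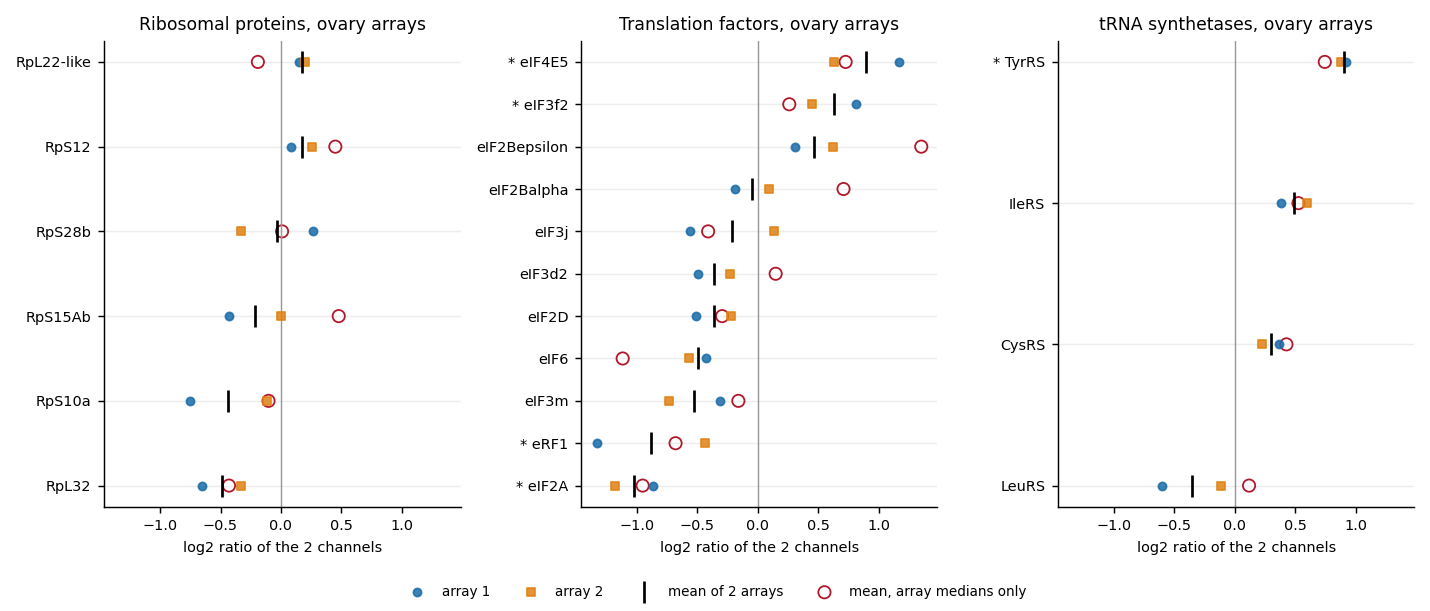
Log2 ratio of the 2 channels (horizontal axis) of each gene of the 3 classes on the 2 ovary arrays, with the mean after block and row centring as a black tick and the mean after centring on array medians only as an open red circle. A star marks genes with an adjusted p under 0.05, and eIF2Bepsilon, eIF2Balpha and eIF6 show wide gaps between tick and circle.

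eIF2A was the most negative of the 21 genes in ovaries. It gave -0.87 on array 1 and -1.18 on array 2, so both arrays lay well below 0. The mean was -1.02 ± 0.22 (SD, n = 2; limma adjusted p = 1.65e-04), a 2.03-fold difference between channels. With array medians only it was -0.95 (adjusted p = 0.00349). The related factor eIF2D had the same sign on both arrays, with a mean of -0.37 (limma adjusted p = 0.238).

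eRF1, the release factor that reads stop codons, gave -1.33 and -0.44. Both values were negative, but the first was far larger in size. On array 1 its neighbouring spots gave -0.87 and -1.78. The mean was -0.88 ± 0.63 (SD, n = 2; limma adjusted p = 0.00117), or 1.85-fold, and -0.68 with array medians only (adjusted p = 0.0383).

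eIF4E5, one of several fly cap-binding proteins, gave 1.16 and 0.63, positive on both arrays. The mean was 0.90 ± 0.38 (SD, n = 2; limma adjusted p = 0.00100), a 1.86-fold difference between channels, and 0.73 with array medians only (adjusted p = 0.0271). eIF3f2, the second copy of an eIF3 subunit, gave 0.81 and 0.45, and averaged 0.63 ± 0.25 (SD, n = 2; limma adjusted p = 0.0269). With array medians only its mean was 0.26 and it did not pass (adjusted p = 0.441). The other eIF3 subunits on the design were negative, with means of -0.53 for eIF3m (limma adjusted p = 0.0710), -0.36 for eIF3d2 and -0.22 for eIF3j.

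For 3 other factors the centring decided the call. eIF2Bepsilon, the catalytic subunit of the exchange factor, had a mean of 0.46 (limma adjusted p = 0.120), and 1.35 with array medians only (adjusted p = 2.89e-05). eIF2Balpha had -0.05 (limma adjusted p = 0.906) and 0.71 (adjusted p = 0.0313). eIF6 had -0.50 (limma adjusted p = 0.0896) and -1.12 (adjusted p = 0.000580). The shift of the rows that hold their spots was 0.72, 0.66 and -0.58, of the same sign as each gap.

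TyrRS, which loads tyrosine, gave 0.92 and 0.88 in ovaries. The 2 arrays were closer to each other than for any other of the 21 genes. The mean was 0.90 ± 0.03 (SD, n = 2; limma adjusted p = 9.67e-04), or 1.86-fold, and 0.74 with array medians only (adjusted p = 0.0235). IleRS gave 0.38 and 0.60, both positive, and averaged 0.49 ± 0.15 (SD, n = 2; limma adjusted p = 0.0968). CysRS and LeuRS, for cysteine and leucine, had means of 0.30 and -0.36 (limma adjusted p = 0.365 and 0.253).

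None of the 6 ribosomal protein genes passed in ovaries. RpL32 gave -0.65 and -0.33, negative on both arrays, and averaged -0.49 ± 0.23 (SD, n = 2; limma adjusted p = 0.0954). RpS10a averaged -0.43 ± 0.45 (SD, n = 2; limma adjusted p = 0.149). The means of RpS15Ab, RpS28b, RpS12 and RpL22-like were -0.21, -0.03, 0.17 and 0.18. RpL22-like is a copy of large subunit protein L22 used mainly in germ cells, and its 2 arrays gave 0.15 and 0.20.

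For the 13 genes on both designs, S3 and ovary means had the same sign in 5 and opposite signs in 8. The share with the same sign over all shared genes is not given here, so these counts have no background to be read against. The S3 means of eIF4E5, counted as the same, and eIF3f2, counted as opposite, were almost 0, at 0.0049 and -0.0050. As the numerator may differ between groups, the sign of the comparison depends on that choice. In a joint limma fit over 1816 shared genes, 136 differed between S3 and ovary (7.49%), and 138 with the ovary sign turned (7.60%). Of the 13, only eIF2A differed. Its S3 minus ovary difference was 1.34 (SE 0.30, 95% interval 0.68 to 2.00, limma adjusted p = 0.0350). All 4 S3 values lay above both ovary values, but most rest on neighbouring spots that disagreed. These gave 0.98 and -0.53 on S3 array 1, 0.87 and 0.03 on array 3, and 1.67 and -0.26 on array 4. On S3 array 2 they were close, at -0.12 and -0.10.

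With the ovary sign turned the difference was -0.71 (limma adjusted p = 0.158), so its sign and its call rest on an unsettled choice. With array medians only the adjusted p was 0.0732. Leaving out S3 array 3 or 4 gave differences of 1.30 and 1.21 for eIF2A (limma adjusted p = 0.0597 and 0.0570). Leaving out ovary array 1 or 2 gave 1.496 and 1.18 (limma adjusted p = 0.340 and 0.151), close to the difference over all arrays. No gene of the 1816 passed in limma with only 1 ovary array, so the loss of that call says nothing about eIF2A itself.

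For eIF4E5 the difference was -0.89 (95% interval -1.51 to -0.27, limma adjusted p = 0.0773), and for eIF3f2 it was -0.63 (limma adjusted p = 0.153). In S3 the neighbouring spots of eIF4E5 had opposite signs on every array, and those of eIF3f2 on arrays 1, 2 and 4. RpL32 differed by 0.55 (limma adjusted p = 0.237). IleRS was positive on all 6 arrays. Its difference was -0.09, with a 95% interval of -0.67 to 0.49 (limma adjusted p = 0.859), which leaves room for a sizeable difference either way.

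**Figure D5:**
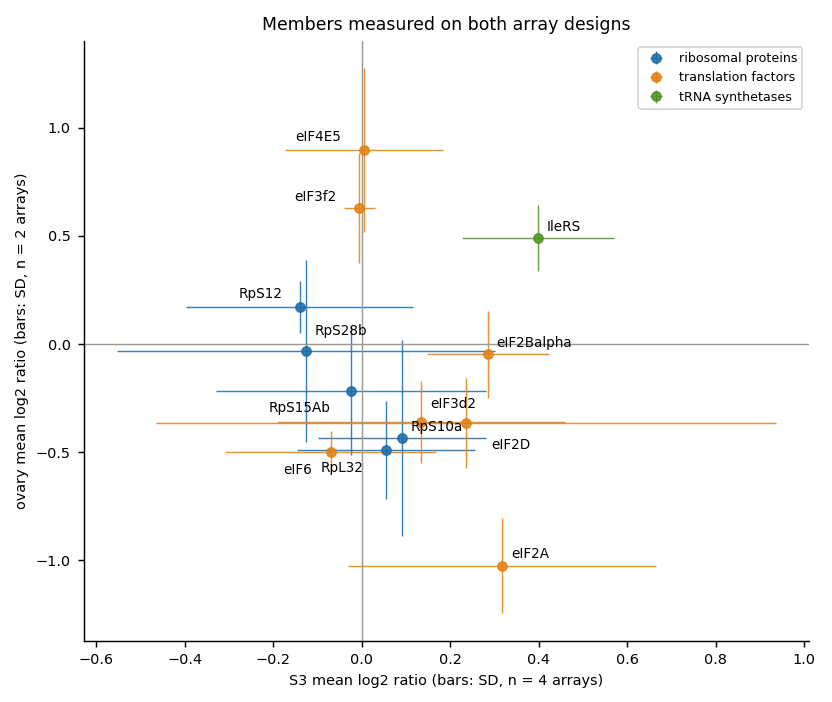
Mean log2 ratio in S3 cells (horizontal axis, bars are SD over 4 arrays) against that in ovaries (vertical axis, bars are SD over 2 arrays) for the 13 genes on both designs, coloured by class. eIF2A lies lowest at 0.32 and -1.02, and eIF4E5 highest at 0.0049 and 0.90. IleRS lies at 0.40 and 0.49 and was past the threshold in neither group.

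Genes that act beside the machinery were taken from lists of translation control, ribosome biogenesis and mitochondrial translation. On the S3 arrays positive means were found for 12 of 21, 21 of 26 and 34 of 59 of their genes, with medians of 0.05, 0.16 and 0.03, and none passed in limma. Ribosome biogenesis genes included NHP2, a protein of the RNA-modifying H/ACA particles, at 0.46 ± 0.44, and Polr1A, the largest subunit of RNA polymerase I, at 0.47 ± 0.49 (SD, n = 4 each). On the ovary arrays 8 of 11 translation control genes had a positive mean, beside 48.2% of all genes. Of these genes 3 passed on the positive and 1 on the negative side (36.4%), near the 32.3% of all genes. Of ribosome biogenesis genes 4 of 9 were positive, and 2 passed on the positive and 1 on the negative side (33.3%), again near that background. Of mitochondrial translation genes 4 of 5 were positive and 3 passed, all positive, beside 17.8% of all genes.

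The ovary calls among them were led by kra, a regulator of translation, which gave 2.89 and 2.25, and averaged 2.57 ± 0.45 (SD, n = 2; limma adjusted p = 8.34e-24). larp, an RNA-binding protein of the La family, had a mean of 1.28 ± 0.21 and crc, the fly ATF4, one of 1.23 ± 0.61 (SD, n = 2; limma adjusted p = 1.78e-06 and 5.16e-06). S6kII, a ribosomal S6 kinase of the RSK type, had -1.02 ± 0.13 (SD, n = 2; limma adjusted p = 1.62e-04). Among ribosome biogenesis genes Nnp-1 had the smallest p. It gave 1.58 and 0.50, and averaged 1.04 ± 0.77 (SD, n = 2; limma adjusted p = 1.31e-04). Nop60B, the pseudouridine synthase of H/ACA particles, had 0.60 ± 0.07 and Nopp140, a nucleolar protein, had -0.59 ± 0.31 (SD, n = 2; limma adjusted p = 0.0371 and 0.0412). In S3 cells crc was negative on all 4 arrays, and averaged -0.27 ± 0.17 (SD, n = 4; limma adjusted p = 0.618).

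Markers of other cell types were few. On the ovary arrays the 1 germline and 1 follicle cell marker had means of -0.28 and 0.42 and did not pass. Of 2 muscle sheath markers 1 passed on the negative side, and of 3 hemocyte markers 1 passed on each side, where 32.3% of all genes passed. On the S3 arrays 0 of 6 hemocyte markers had a positive mean, with a median of -0.24. Positive means were found for 3 of 8 germline, 1 of 3 follicle cell, 0 of 3 muscle sheath and 2 of 3 gut and fat body markers, and 0 of any of these passed in limma. The part of these cell types in the values above was not tested.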

How the data were processed

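The deposited values are log ratios, taken here as log2, made by the authors from 2-colour arrays. Background correction, normalisation, numerator and log base are not given in the sources used here, and no spot intensities were used, so no filter on dim spots was possible and only the number of arrays describes precision. Medians as deposited were 0.08, -0.02, 0.06 and 0.18 (S3) and 0.11 and 0.06 (ovary), so scale, centring and direction are not fully known. Spots were named through the platform annotation: 15116 spots had 1 gene, 102 several and 12430 none on the S3 design, and 5666, 152 and 11078 on the ovary design. Symbols were updated by Entrez number.

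S3 values were centred on print blocks (48 blocks of 576 spots), and ovary values on blocks (32 of 528 spots) and rows. The layout was read from the values. Spots of a gene were averaged, and its mean was tested against 0 in limma 3.58.1 (R 4.3.3), two-sided, adjusted by Benjamini-Hochberg over all genes at 0.05. A joint fit compared S3 with ovary. The test was tried on simulated data. Python 3.11.15, pandas 2.3.3 and matplotlib 3.10.9 were used.

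Named by rule are genes past the test (up to 12 per sign and class), those with the smallest p up to 6 per class and group, related copies on the same design, shared genes past the test in either group, and up to 4 genes of the translation control and ribosome biogenesis lists. Other genes named were chosen after their values were seen. The members, lists, centring and tests were all chosen with earlier results of these data known. Alternatives tried were the centring, array 2's sign, scale, spot summary, missing values, variance prior, dye term, threshold, duplicates and left-out arrays. Sequences and genomic positions are left out, since the build behind the values is not named.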

Additional observations from a re-analysis of the deposited data

Results flagged for a closer look

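Of 60 sets of 4 S3 values tested for a single array far from the others, 4 were picked out, and chance picks about 1 in 20. RpS7 (1.18), eIF3k (0.75) and eIF4A (1.51) each stood apart on S3 array 4. eRF3 stood apart on S3 array 3, at 0.46, where its other arrays were below 0. eIF2A differed between S3 and ovary by 1.34 (limma adjusted p = 0.0350), with the limits given beside that result.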

How the results depend on the processing

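In S3 cells 0 genes passed, against 3 with array medians, 5 with no centring, 2 at equal scale, 3 with medians over spots, 1 with a dye term, 9 with disagreeing duplicates left out, 9 at an adjusted p of 0.10 and 0 to 1 with 1 array left out. Wherever the classes were counted under these settings, 0 S3 genes of the machinery passed. In ovaries 767 passed, against 1166 with blocks but not rows centred, 0 with array 2 turned, 268 in the joint fit and 0 and 11 there without array 1 or 2. The count of genes that differed between S3 and ovary was 136, against 77 with S3 array 2 turned, 39 to 67 without 1 S3 array and 0 without either ovary array. S3 and ovary arrays of the same number share only that number (their deviations correlated at -0.03 and -0.041 across genes). With the replicate number as a block, 14 differed and eIF2A did not pass (limma adjusted p = 0.0948).

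The S3 translation factor median of 0.14 was 0.21 with no centring, 0.074 with array 2 turned, 0.0010 with array medians and array 2 turned, and 0.074 to 0.16 with 1 array left out. With no centring, array medians, blocks without rows and array 2 turned, the ovary medians were -0.078, -0.16, -0.20 and -0.13 for translation factors and 0.56, 0.48, 0.53 and -0.045 for synthetases, and the ribosomal protein median was 0.036 with no centring. With blocks only, 1 ribosomal protein gene and 2 synthetase genes passed in ovaries, as at an adjusted p of 0.10. With array 2 turned, 0 translation factors and 0 synthetases passed. In the joint fit without either ovary array 0 passed of the genes of these classes on both designs, which leave out eRF1 and TyrRS.

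The 2 ovary arrays correlated at 0.758 across genes, so turning 1 of them leaves only their difference, and small means with no calls follow from that construction. With array 2 turned, ovary means were 0.16 for eIF2A, 0.21 for eIF3m, 0.068 for eIF6, 0.30 for RpS28b, -0.11 for IleRS, -0.025 for RpL22-like and -0.084 for RpS12. With array medians they were 0.12 for LeuRS, -0.19 for RpL22-like, 0.48 for RpS15Ab and 0.0089 for RpS28b. In S3, eIF4E5 was -0.037 under either. With 1 array left out, means ran from -0.079 to 0.037 for AlaRS, -0.067 to 0.32 for RpLP0, -0.089 to 0.23 for SerRS, -0.074 to 0.061 for eIF3f1, -0.019 to 0.0058 for eIF3f2, -0.14 to 0.053 for eIF4E3, -0.046 to 0.091 for eIF4E5 and -0.13 to 0.018 for eIF4G2, and from -0.33 to 0.27 for ovary RpS28b. The cause was not tested except for left-out arrays, where fewer arrays entered. Too few arrays, the low repeatability of the S3 arrays and the missing intensities limit every value above.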
